A study of Mus musculus with 8 samples.

Results

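The transporters of amino acids, sugars and lactate form 10 solute carrier families, Slc1, Slc2, Slc3, Slc6, Slc7, Slc15, Slc16, Slc36, Slc38 and Slc43, and 98 of the 25078 gene rows measured carry a symbol of these families. The rule for members uses the symbol alone, and the families were picked with earlier results of these data known. The rows include 4 that match by name but encode no carrier: Slc7a6os, Slc36a1os and Slc6a19os are opposite-strand genes, and Slc2a4rg-ps is a transcribed pseudogene. Of the 98 rows, 45 passed the filter on low counts and were tested, 33 had some reads but too few to be tested, and 20 had 0 reads in all 8 libraries.

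RNA-seq was carried out on donor T cells from the spleen of mice 6 days after hematopoietic cell transplantation. Recipients were lethally irradiated BALB/c mice that received T cell-depleted bone marrow from WT C57BL/6 mice together with C57BL/6 donor T cells, and the donor T cells were either WT or STAT3KO. The STAT3KO donors were Stat3 fl/fl mice with CD4-Cre, so that the gene is removed in CD4+ and CD8+ T cells alike, while the marrow was WT in every group. CD4+ and CD8+ T cells of either genotype made 4 groups with 2 libraries each, and each library combined cells from 3 recipients. The p-values therefore measure the spread between such pools.

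Carriers of these families bring nutrients across the plasma membrane and across the lysosomal membrane. Resting T cells hold few of them, and activation raises glutamine, large neutral amino acid, glucose and lactate carriers together as the cells grow and divide. Several work in pairs: Slc3a2 encodes the CD98 heavy chain, which takes light chains such as Slc7a5 and Slc7a6 to the surface, and the lactate carrier Slc16a1 needs the chaperone basigin.

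The libraries held 20171396 to 23282757 reads assigned to genes, of which 0.216% to 0.259% fell on the 98 rows. In CPM, read counts scaled to library depth, Stat3 read 436 and 428 in the WT CD4+ libraries against 138 and 141 in the STAT3KO CD4+ libraries, and 431 and 436 against 120 and 143 in CD8+ cells, and Cd4 and Cd8a separated the sorted populations. T cell markers summed to 4267 to 5123 CPM. A list of 8 macrophage and monocyte genes summed to 6.66 to 15.2 CPM in the 4 libraries numbered 1 and to 59.4 to 96.0 CPM in the 4 numbered 2, so it moved with the replicate number and not with the groups. Erythroid and dendritic lists stayed under 7 CPM, with Hba-a1, Hba-a2, Clec9a, Siglech and Cd209a at 0 in every library. In bulk RNA, a lower value can come from fewer cells of a type or from less RNA per cell, and these cannot be told apart.

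A small number of carriers made up most of the transporter RNA. On RPKM, which divides reads by depth and by exon length, 31 of the 98 rows averaged above 1 and 15 above 10, and the 10 highest held 72.7% of the summed RPKM. The glutamine carriers stood first. Slc1a5 (ASCT2, a glutamine and neutral amino acid exchanger) averaged 80.4 RPKM over the 8 libraries, Slc38a2 (SNAT2, a sodium-coupled glutamine and alanine carrier) 68.0 and its neighbour Slc38a1 (SNAT1) 35.9. The CD98 heavy chain Slc3a2 averaged 54.1 RPKM, next after Slc38a2. The glucose carrier Slc2a3 (GLUT3) averaged 40.7 RPKM against 25.9 for Slc2a1 (GLUT1). The taurine carrier Slc6a6 averaged 30.6 RPKM, and the lactate and pyruvate carrier Slc16a1 (MCT1) 28.5. The opposite-strand gene Slc7a6os and the Slc38 member Slc38a10 completed the 10 highest, at 27.4 and 24.2 RPKM.

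By family, Slc38 held 24.4% of the summed RPKM, Slc2 15.5%, Slc1 14.1%, Slc7 12.8%, Slc3 9.50% and Slc16 8.14%, and the other 4 families under 6% each. These sums include the rows that encode no carrier: Slc7a6os supplied 37.4% of the Slc7 sum and Slc2a4rg-ps 9.08% of the Slc2 sum, and without such rows Slc7 held 8.53% and Slc2 14.997% of the carriers' RPKM. The tested rows were 2 of 7 in Slc1, 6 of 13 in Slc2, 1 of 2 in Slc3, 4 of 22 in Slc6, 7 of 16 in Slc7, 3 of 5 in Slc15, 10 of 14 in Slc16, 3 of 5 in Slc36, 6 of 11 in Slc38 and all 3 in Slc43. The 53 rows left out never exceeded 17 reads in a library, and their median was 1 read over all 8. They include Slc7a11, the cystine carrier xCT, which had 0 reads in 6 libraries and 1 read in the 2 others.

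**Figure D1:**
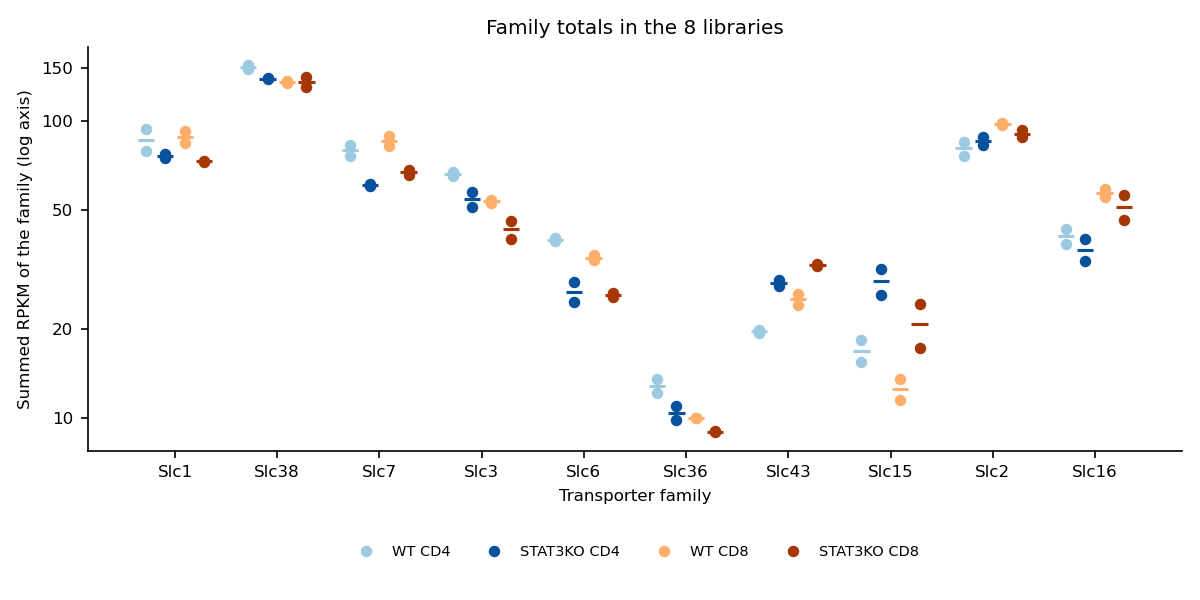
Summed RPKM of each transporter family (log axis) in the 8 libraries; points are libraries, bars the mean of the 2 libraries of a group. The Slc7 points of STAT3KO cells lie at 60.2 to 61.1 (CD4+) and 65.8 to 68.0 (CD8+), below the WT points at 76.2 to 82.6 and 82.1 to 89.0, while the Slc15 and Slc43 points of STAT3KO cells lie above those of WT cells of the same lineage.

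Family totals of STAT3KO cells lay below those of WT cells, without overlap in either lineage, in 5 families (Slc1, Slc3, Slc6, Slc7 and Slc36) and above them in 2 (Slc15 and Slc43). The Slc7 rows summed to 82.6 and 76.2 RPKM in WT CD4+ and to 61.1 and 60.2 in STAT3KO CD4+ libraries, and to 89.0 and 82.1 against 65.8 and 68.0 in CD8+ libraries. Without Slc7a6os the Slc7 sums were 51.1 and 47.8 against 36.002 and 35.2 RPKM in CD4+ and 59.98 and 53.6 against 39.4 and 42.9 in CD8+ cells. The Slc6 rows, nearly all of which is Slc6a6, summed to 40.2 and 39.5 against 28.6 and 24.5 RPKM in CD4+ cells and to 34.1 and 35.3 against 26.4 and 25.7 in CD8+ cells. The Slc3 rows, nearly all of which is Slc3a2, summed to 67.0 and 65.0 against 51.4 and 57.4 RPKM in CD4+ and to 52.9 and 54.2 against 40.2 and 46.0 in CD8+ cells. The Slc1 rows, nearly all of which is Slc1a5, summed to 93.4 and 79.3 against 77.2 and 74.9 RPKM in CD4+ and to 92.4 and 84.0 against 72.5 and 73.2 in CD8+ cells. The Slc36 rows summed to 13.5 and 12.2 against 11.0 and 9.88 and to 10.07 and 10.04 against 9.09 and 8.98. The Slc43 rows went the other way, from 19.4 and 19.9 to 29.1 and 27.9 RPKM in CD4+ and from 26.2 and 24.1 to 32.9 and 32.5 in CD8+ cells. The Slc15 rows summed to 15.4 and 18.3 against 25.9 and 31.8 RPKM in CD4+ and to 11.6 and 13.6 against 17.3 and 24.1 in CD8+ cells. Slc16 overlapped between genotypes in both lineages, Slc2 in CD4+ cells and Slc38 in CD8+ cells. These sums are descriptions and carry no test. With 2 libraries a group, separation without overlap is a weak criterion, and how often it occurs over all genes was not counted.

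How STAT3 deficiency changed the transporters of CD4+ T cells was tested with edgeR (adjusted p under 0.05 over the 12428 genes tested). Of the 45 tested members 6 were called, 3 higher and 3 lower, against a background of 11.6% of all genes called (6.54% higher and 5.08% lower); 28 of 45 members lay below 0, and their median log2 fold change was -0.13 beside 0.02 over all genes. Higher were Slc43a3, Slc15a2 and Slc2a4rg-ps, which carry nucleobases, carry small peptides and encode no protein, respectively. Lower were Slc7a1, Slc6a6 and Slc36a4, carriers of cationic amino acids, of taurine and of proline and tryptophan. With the replicate number as a block in the fit, 16 members were called, beside 3747 of the 12428 genes tested. In the STAT3KO CD4+ libraries a list of 7 cell cycle genes summed to 2878 and 2764 CPM against 1538 and 1222 in WT, with all 7 called higher. A list of 6 B cell genes summed to 2.56 and 3.28 CPM against 17.8 and 11.5. Only 2 of these 6 passed the filter on low counts, and of them 1 was called higher and 1 lower. The part of either list in the transporter differences was not tested.

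Slc43a3 (chr2:84936646-84958509, plus strand, mm10), an equilibrative carrier of purine nucleobases, had the smallest adjusted p of the members. In CD4+ cells it measured 19.7 and 18.8 CPM in the WT and 53.4 and 53.8 in the STAT3KO libraries, and in CD8+ cells 49.5 and 44.8 against 67.0 and 67.9. No 2 groups overlapped, and the WT CD4+ libraries were the lowest. The log2 fold change in CD4+ cells was 1.48 ± 0.10 (SE, n = 2 against 2, adjusted p = 0.000729, edgeR), and the call held under all 16 other settings and library removals. Its relatives of the same family, which carry large neutral amino acids, had other values: Slc43a1 (LAT3) measured 11.2 and 20.7 CPM in WT against 5.65 and 6.86 in STAT3KO CD4+ cells (log2 -1.35 ± 0.37, adjusted p = 0.0572), and Slc43a2 (LAT4) 59.1 and 39.0 against 50.2 and 40.4 (adjusted p = 0.781). Slc43a1 and Slc43a3 lie 73059 bases apart on chromosome 2.

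Slc15a2 (chr16:36750164-36784962, minus strand) encodes PEPT2, a proton-coupled carrier of di- and tripeptides. It measured 14.2 and 19.8 CPM in WT and 39.4 and 65.8 in STAT3KO CD4+ libraries, a log2 fold change of 1.63 ± 0.34 (adjusted p = 0.0217). In CD8+ cells it measured 10.6 and 15.03 against 38.9 and 64.3 CPM, a log2 fold change of 2.01 ± 0.34 (adjusted p = 0.0337). All 4 STAT3KO libraries lay above all 4 WT libraries. In each of the 4 groups the library numbered 2 was higher, by 1.39 to 1.67 times, and these are also the libraries with more macrophage and monocyte RNA; whether the macrophage and monocyte RNA takes part in that spread was not tested. The endolysosomal relatives Slc15a3 and Slc15a4 did not pass the test in CD4+ (adjusted p = 0.129 and 0.313) or CD8+ cells (0.275 and 0.715). Slc15a3 shares 29.5% of its exon bases with Tmem132a on the opposite strand, and the strand setting of the counting is not given in the sources used here, so its value may hold reads of both.

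Slc2a4rg-ps (chr2:181384250-181387596, plus strand), a transcribed pseudogene related to a regulator of the GLUT4 gene, measured 19.2 and 15.97 CPM in WT and 32.9 and 32.1 in STAT3KO CD4+ libraries. The log2 fold change was 0.89 ± 0.15 (adjusted p = 0.0116). CD8+ libraries read 19.6 and 15.2 CPM in WT and 28.3 and 30.9 in STAT3KO cells, also without overlap, at an adjusted p of 0.0543.

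Slc7a1 (chr5:148327410-148399904, minus strand) encodes CAT1, a carrier of arginine and lysine. CD4+ libraries read 121 and 109.6 CPM in WT and 77.4 and 77.0 in STAT3KO cells (log2 -0.58 ± 0.11, adjusted p = 0.0155). CD8+ libraries read 136 and 128 against 85.1 and 99.1 CPM (log2 -0.52 ± 0.11, adjusted p = 0.0633). The STAT3KO libraries were the lower in both lineages, with no overlap.

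Slc6a6 (chr6:91684067-91759063, plus strand), the sodium-coupled taurine carrier, was also called lower in CD4+ cells. It measured 245 and 237 CPM in WT and 173 and 149.7 in STAT3KO CD4+ libraries (log2 -0.58 ± 0.10, adjusted p = 0.0134). In CD8+ libraries it measured 205 and 208 against 153 and 152 CPM (log2 -0.44 ± 0.10, adjusted p = 0.0811). Every STAT3KO library lay below every WT library.

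Slc36a4 (chr9:15709738-15742387, plus strand) encodes PAT4, a carrier of proline and tryptophan. It measured 30.2 and 32.5 CPM in WT and 17.7 and 20.4 in STAT3KO CD4+ libraries (log2 -0.72 ± 0.13, adjusted p = 0.0145), and 15.3 and 15.7 against 12.1 and 14.2 in CD8+ cells (adjusted p = 0.384). The STAT3KO CD4+ libraries lay between the WT CD4+ and the WT CD8+ libraries. Its relative Slc36a1 (PAT1), a lysosomal amino acid and proton carrier, measured 42.2 and 32.7 against 41.4 and 33.5 CPM in CD4+ cells, with overlapping groups.

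**Figure D2:**
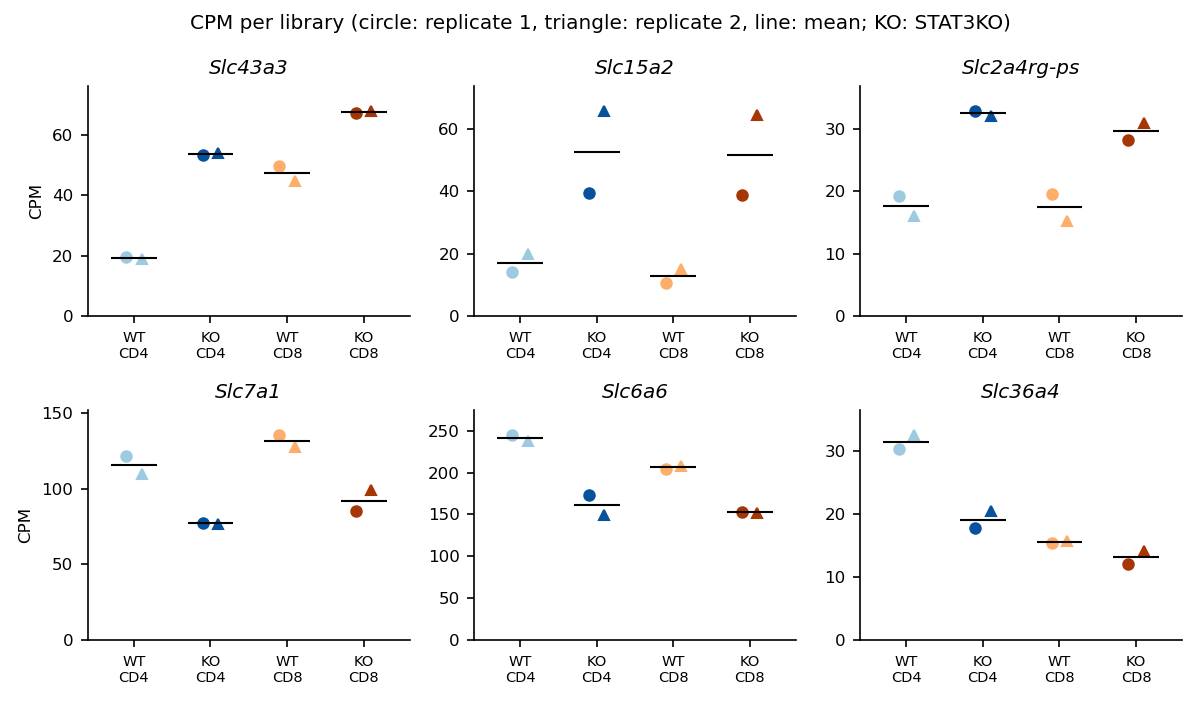
CPM in each of the 8 libraries (y axis from 0) for 6 members called between STAT3KO and WT cells in CD4+ or CD8+ T cells; circles are replicate 1, triangles replicate 2 and lines the mean of 2. Slc43a3 rises from 19.7 and 18.8 in WT to 53.4 and 53.8 in STAT3KO CD4+ cells and lies at 44.8 to 67.9 in CD8+ cells.

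The calls in CD4+ cells rested on 2 libraries a group. Of these members, Slc43a3 alone kept its call under all 16 other settings and library removals. Slc15a2, Slc2a4rg-ps, Slc7a1 and Slc36a4 each kept theirs in 13 of the 16, and Slc6a6 in 15. Leaving out any CD4+ library lowered the number of calls, among the members as over all genes. With any 1 library left out, the log2 fold change ranged from 1.45 to 1.51 for Slc43a3, 1.21 to 1.95 for Slc15a2 and 0.76 to 1.03 for Slc2a4rg-ps. For Slc7a1 it ranged from -0.65 to -0.51, for Slc6a6 from -0.69 to -0.48 and for Slc36a4 from -0.82 to -0.62.

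In CD8+ T cells 3 of the 45 members were called, 2 of them higher, beside a background of 2.07% of all genes called (1.34% higher and 0.732% lower). Slc15a2 was called higher, with the values above, and so was Slc43a3, at a log2 fold change of 0.52 ± 0.10 (adjusted p = 0.0472). Both were called in CD4+ cells too. Leaving out any 1 of the 4 CD8+ libraries ended both calls, with adjusted p-values from 0.0953 to 0.311 and log2 fold changes from 1.60 to 2.33 for Slc15a2 and 0.45 to 0.59 for Slc43a3. Leaving out either STAT3KO CD4+ library, which enters through the shared spread, also ended them (adjusted p from 0.0508 to 0.107). Without either WT CD4+ library Slc15a2 alone was called. With the replicate number as a block 9 members were called, beside 2258 of the 12428 genes tested. Over all genes, too, fewer were called with any 1 library left out. The median over the 45 members was -0.17, beside -0.01 over all genes, and 29 of 45 were below 0. The cell cycle list summed to 4701 and 4524 CPM in STAT3KO CD8+ libraries against 4159 and 3273 in WT, with 0 of its 7 genes called.

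**Figure D3:**
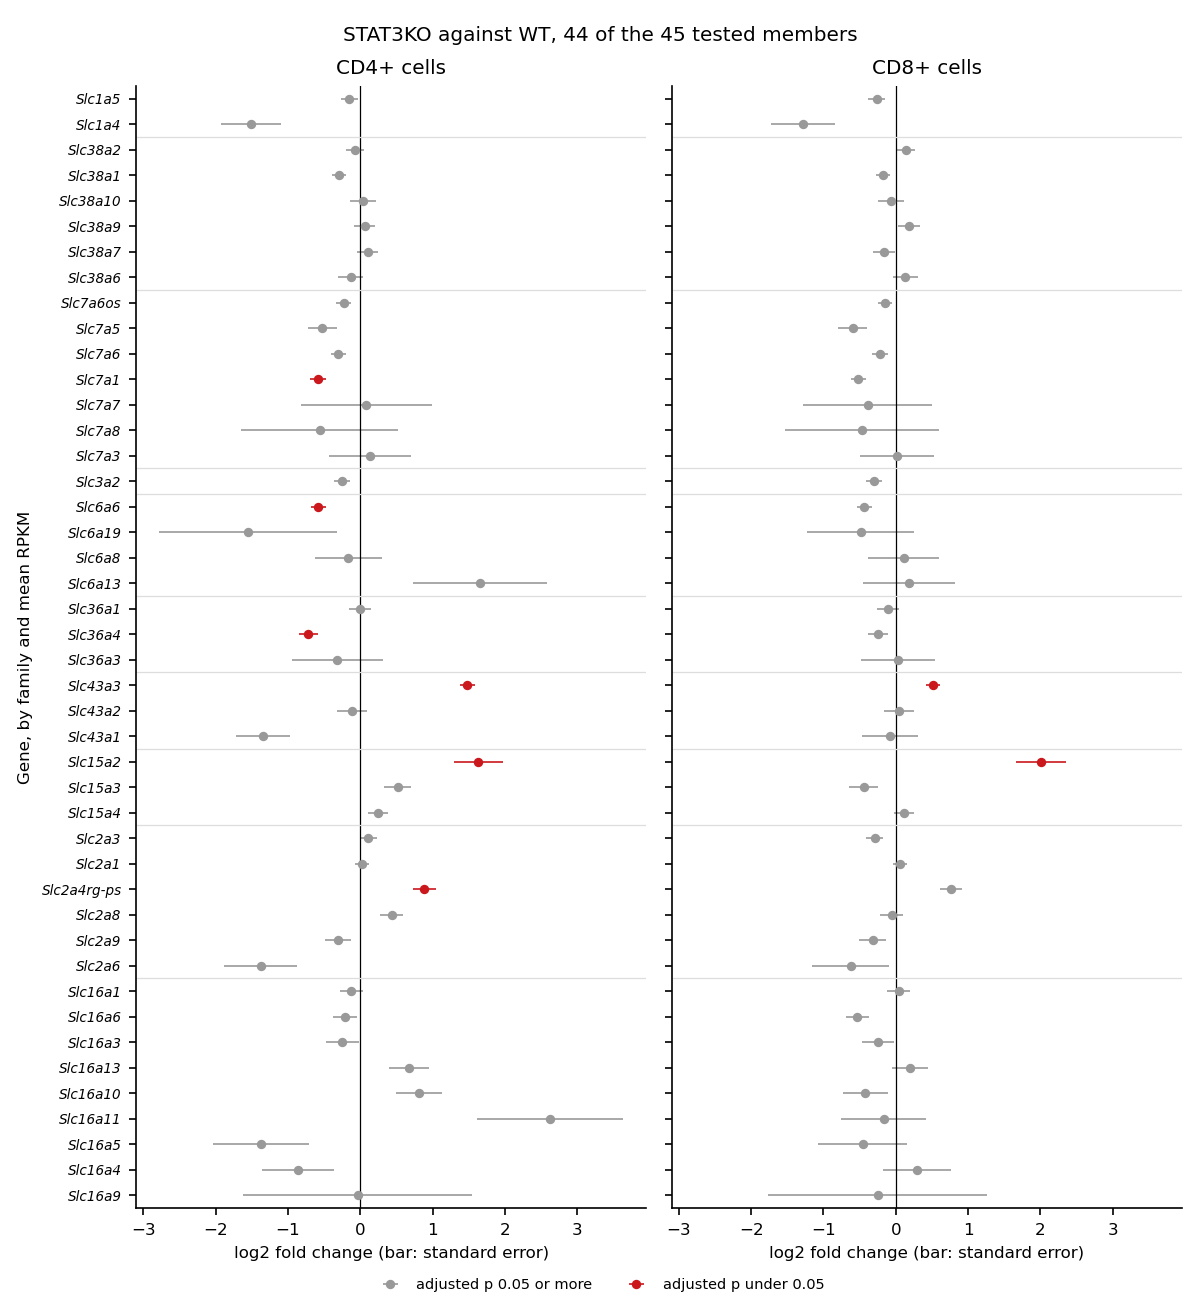
Log2 fold change of STAT3KO against WT cells in CD4+ (left) and CD8+ (right) T cells for 44 of the 45 tested members, ordered by family and mean RPKM; bars are standard errors and red marks an edgeR adjusted p under 0.05. Slc15a2 and Slc43a3 lie to the right in both panels, and Slc7a1 and Slc6a6 lie between -0.58 and -0.44 in both.

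The glutamine carriers, the most abundant members, had smaller differences that did not pass the test. Under the 16 other settings and library removals, Slc38a1 in CD4+ cells stayed short of it in 13. It passed in the others, among them the block (adjusted p = 0.0155). Slc1a5 measured 257 and 215 CPM in WT and 215 and 211 in STAT3KO CD4+ cells, and 254 and 234 against 201 and 206 in CD8+ cells, at log2 fold changes of -0.15 ± 0.12 and -0.26 ± 0.12 (adjusted p = 0.473 and 0.274). Slc38a1 measured 340.2 and 345 against 283 and 277 CPM in CD4+ and 317 and 314 against 269 and 289 in CD8+ cells, with no overlap in either lineage and adjusted p-values of 0.0969 and 0.375. Slc38a2 overlapped between genotypes in both lineages, at 352 and 338 against 316 and 342 CPM in CD4+ and 279 and 299 against 284 and 352 in CD8+ cells. Slc1a4 (ASCT1, a carrier of alanine, serine and cysteine) was far scarcer, at 3.94 and 2.60 against 1.00 and 1.28 CPM in CD4+ cells (log2 -1.51 ± 0.42, adjusted p = 0.0572).

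The CD98 heavy chain Slc3a2 (chr19:8706882-8723369, minus strand) measured 199.7 and 189.7 CPM in WT and 154 and 174 in STAT3KO CD4+ libraries, and 156 and 163 against 119 and 139 in CD8+ libraries. The STAT3KO libraries were the lower in each lineage without overlap. The log2 fold changes were -0.25 ± 0.11 and -0.30 ± 0.11, at adjusted p-values of 0.205 and 0.204. With the replicate block they passed (adjusted p = 0.0492 and 0.0357). Its light chain Slc7a5 (LAT1, the leucine carrier) measured 59.8 and 43.9 against 37.5 and 34.5 CPM in CD4+ and 93.4 and 65.2 against 50.6 and 54.6 in CD8+ cells (log2 -0.52 ± 0.20 and -0.59 ± 0.20, adjusted p = 0.144 and 0.162, with the block 0.021 and 0.0189). Slc7a6 (y+LAT2) measured 78.6 and 86.5 against 66.9 and 67.0 CPM in CD4+ and 65.9 and 75.4 against 59.8 and 61.8 in CD8+ cells (adjusted p = 0.116 and 0.325, with the block 0.0206 and 0.102).

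Measured per length, the heavy chain exceeded its light chains in every library. Slc3a2 RPKM was 1.95 to 2.33 times the summed RPKM of 6 light chains in CD4+ libraries and 1.29 to 1.57 times in CD8+ libraries, with the STAT3KO values above those of WT in the CD4+ cells (2.04 and 2.33 against 1.95 and 2.00) and overlapping them in the CD8+ cells (1.46 and 1.57 against 1.29 and 1.52). Slc7a5 and Slc7a6 supplied nearly all of that sum. Slc7a5 made up 38.9% to 49.2% of it in CD4+ and 51.1% to 64.8% in CD8+ libraries, and Slc7a6 the larger part in CD4+ cells, by 49.3% against 49.2% in the first WT library and more in the 3 others. The Slc7a5 difference between lineages itself did not pass the test in WT (log2 0.61 ± 0.20, adjusted p = 0.0622) or STAT3KO cells (log2 0.55 ± 0.20, adjusted p = 0.127). With the block it passed in both (0.00497 and 0.0142).

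Neither glucose carrier passed the test between genotypes. Slc2a1 (chr4:119108745-119137329, plus strand) measured 65.1 and 60.2 CPM in WT and 64.8 and 62.7 in STAT3KO CD4+ libraries, and 69.0 and 70.5 against 69.5 and 76.0 in CD8+ libraries. The groups overlapped in both lineages, and the log2 fold changes were 0.03 ± 0.10 and 0.06 ± 0.10 (adjusted p = 0.903 and 0.808). Slc2a3 measured 140.4 and 117 against 145 and 133 CPM in CD4+ and 209.9 and 214 against 169 and 177 in CD8+ cells (log2 0.11 ± 0.12 and -0.29 ± 0.11, adjusted p = 0.587 and 0.222). In RPKM, Slc2a3 was 1.26 to 1.46 times Slc2a1 in CD4+ libraries, 1.97 and 1.98 times in WT CD8+ and 1.51 and 1.58 times in STAT3KO CD8+ libraries.

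The main lactate carrier overlapped between genotypes. Slc16a1 measured 130.4 and 108 CPM in WT and 96.4 and 123 in STAT3KO CD4+ cells, and 148 and 129 against 129 and 156 in CD8+ cells (adjusted p = 0.693 and 0.936). Slc16a3 (MCT4, a lactate exporter of glycolytic cells) measured 6.29 and 6.24 against 5.25 and 5.30 CPM in CD4+ and 8.52 and 5.85 against 6.66 and 5.46 in CD8+ cells (adjusted p = 0.544 and 0.616), and Slc16a1 was 10.1 to 16.7 times as high as Slc16a3 in RPKM.

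**Figure D4:**
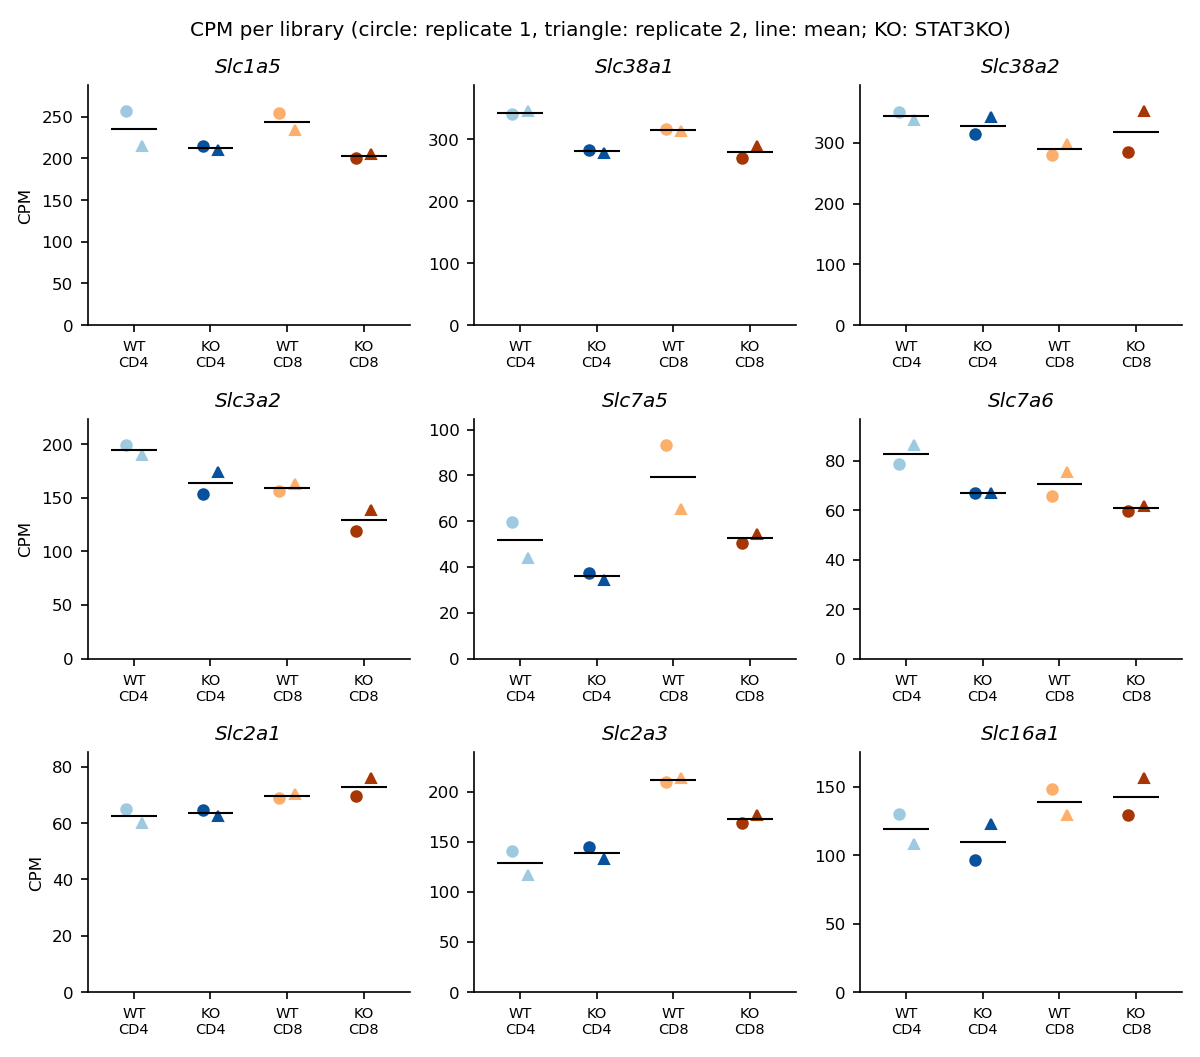
CPM in each of the 8 libraries (y axis from 0) for 9 abundant uptake carriers; circles are replicate 1, triangles replicate 2 and lines the mean of 2. Slc3a2, Slc7a5, Slc7a6 and Slc38a1 lie lower in STAT3KO than in WT libraries of the same lineage without passing the test (fit without the replicate block), while the Slc2a1 points stay between 60.2 and 76.0 CPM.

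Whether the STAT3KO difference itself differed between CD8+ and CD4+ cells was tested as an interaction. By edgeR 0 of the 45 members passed, beside a background of 0.0% of all genes; at an unadjusted p under 0.05 there were 7 members and 982 genes, and DESeq2 called 1 member (Slc43a3) and 188 genes. Slc43a3 was the nearest, with a difference of -0.96 ± 0.14 on the log2 scale (unadjusted p = 0.00017, adjusted p = 0.118), its increase being 1.48 in CD4+ and 0.52 in CD8+ cells. Slc15a3 followed at -0.96 ± 0.28 (adjusted p = 0.358). With the block both passed (0.00557 and 0.0283). For Slc15a2, Slc7a1 and Slc6a6 the differences were 0.38 ± 0.47, 0.06 ± 0.15 and 0.14 ± 0.15.

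How the transporters differed between CD8+ and CD4+ T cells was tested within each genotype. In WT cells 15 of 45 members were called, 9 higher and 6 lower in CD8+ cells, beside a background of 23.8% of all genes (12.2% higher and 11.6% lower). In STAT3KO cells 7 were called, 2 higher and 5 lower, beside 12.5% (5.84% higher and 6.67% lower). With the replicate number as a block 26 members were called in WT cells, beside 5232 of the 12428 genes tested. In STAT3KO cells the block gave 15 members, beside 3689 genes. The comparisons share libraries with those of the genotypes. The list of 7 cell cycle genes summed to 4159 and 3273 CPM in WT CD8+ libraries, against 1538 and 1222 in WT CD4+. All 7 were called higher. In STAT3KO cells it summed to 4701 and 4524 CPM in CD8+ against 2878 and 2764 in CD4+ libraries, with 4 called higher. The part of this list in the transporter differences between lineages was not tested. Fewer members were called in WT cells without either WT CD4+ library or the first WT CD8+ library, and in STAT3KO cells without any STAT3KO library. Over all genes, too, fewer were called in these removals. Without the second WT CD8+ library the calls in WT cells fell over all genes but not among the members. Slc16a13, Slc36a4, Slc38a7 and Slc38a9 were called in both genotypes, and so was Slc6a19, which passed the filter on low counts through the CD8+ libraries alone.

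Of the 9 members higher in WT CD8+ cells, 4 were past the minimum count in fewer than 2 CD4+ libraries. These passed the filter through the cells in which they are higher, which favours a difference. The 4 include Slc16a11, Slc6a19 and Slc6a13, which are given as reads only. Slc36a3 passed through the CD8+ libraries in the same way and was not called in either genotype. Slc16a11 (chr11:70213910-70216414, plus strand) had 1 and 1 read in the WT CD4+ and 37 and 48 reads in the WT CD8+ libraries. In STAT3KO cells it had 3 and 11 reads in CD4+ and 17 and 53 in CD8+ libraries. Its neighbour Slc16a13 lies 377 bases away on the opposite strand and measured 2.25 and 1.80 CPM in WT CD4+ against 6.35 and 5.14 in WT CD8+ cells, and 3.85 and 2.60 against 6.46 and 6.68 in STAT3KO cells (log2 1.51 ± 0.27 and 1.03 ± 0.26, adjusted p = 0.00586 and 0.0413). Slc16a10 (TAT1, an aromatic amino acid carrier) and Slc16a6 were higher in WT CD8+ cells by 1.47 ± 0.32 and 0.90 ± 0.16 (adjusted p = 0.0145 and 0.0065). In STAT3KO cells their differences were 0.23 ± 0.31 and 0.58 ± 0.16 (adjusted p = 0.694 and 0.0575). Slc16a6 shares 23.5% of its exon bases with Amz2 and Arsg on the opposite strand and Gm25540 on the same strand. Its value may therefore hold reads of these genes.

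Outside Slc16, the glucose carrier Slc2a3 and the nucleobase carrier Slc43a3 were higher in WT CD8+ than in WT CD4+ cells, by 0.72 ± 0.12 (adjusted p = 0.00373) and 1.29 ± 0.10 (adjusted p = 0.000222). In STAT3KO cells the differences were 0.31 ± 0.12 and 0.33 ± 0.10 (adjusted p = 0.125 and 0.0691), and these passed with the block (0.0262 and 0.0163). Slc6a19 (B0AT1, a neutral amino acid carrier known from gut and kidney) had 2 and 10 reads in the CD4+ and 29 and 150 in the CD8+ libraries of WT cells, and 1 and 3 against 55 and 61 in those of STAT3KO cells. Its 2 WT CD8+ libraries differed by 5.04 times. Slc6a13 (GAT2, a GABA and taurine carrier) had at most 14 reads in a library.

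Of the members lower in CD8+ cells, Slc38a9, the lysosomal arginine sensor that signals to mTORC1, measured 60.8 and 74.7 CPM in WT CD4+ against 35.7 and 45.6 in WT CD8+ cells and 68.2 and 73.2 against 46.0 and 46.3 in STAT3KO cells (log2 -0.74 ± 0.15 and -0.62 ± 0.15). Slc38a7, a lysosomal glutamine exporter, had log2 fold changes of -0.64 ± 0.15 in WT and -0.91 ± 0.15 in STAT3KO cells, and Slc36a4 of -1.01 ± 0.13 and -0.54 ± 0.13. Slc15a3 was called in STAT3KO cells (log2 -1.57 ± 0.20, adjusted p = 0.00327), as was the intracellular hexose carrier Slc2a8 (log2 -0.87 ± 0.16, adjusted p = 0.0122). The other lysosomal members Slc36a1 and Slc15a4 were not called, at -0.03 ± 0.15 and -0.18 ± 0.14 in WT and -0.14 ± 0.15 and -0.30 ± 0.14 in STAT3KO cells. Slc2a6 (GLUT6), Slc43a1 and Slc38a6 were called lower in WT cells, at -1.67 ± 0.51, -1.60 ± 0.38 and -0.76 ± 0.17. For Slc2a6 the WT libraries read 8.98 and 7.84 CPM in CD4+ against 1.60 and 3.66 in CD8+ cells, and the STAT3KO libraries 2.90 and 3.56 against 0.868 and 2.53.

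**Figure D5:**
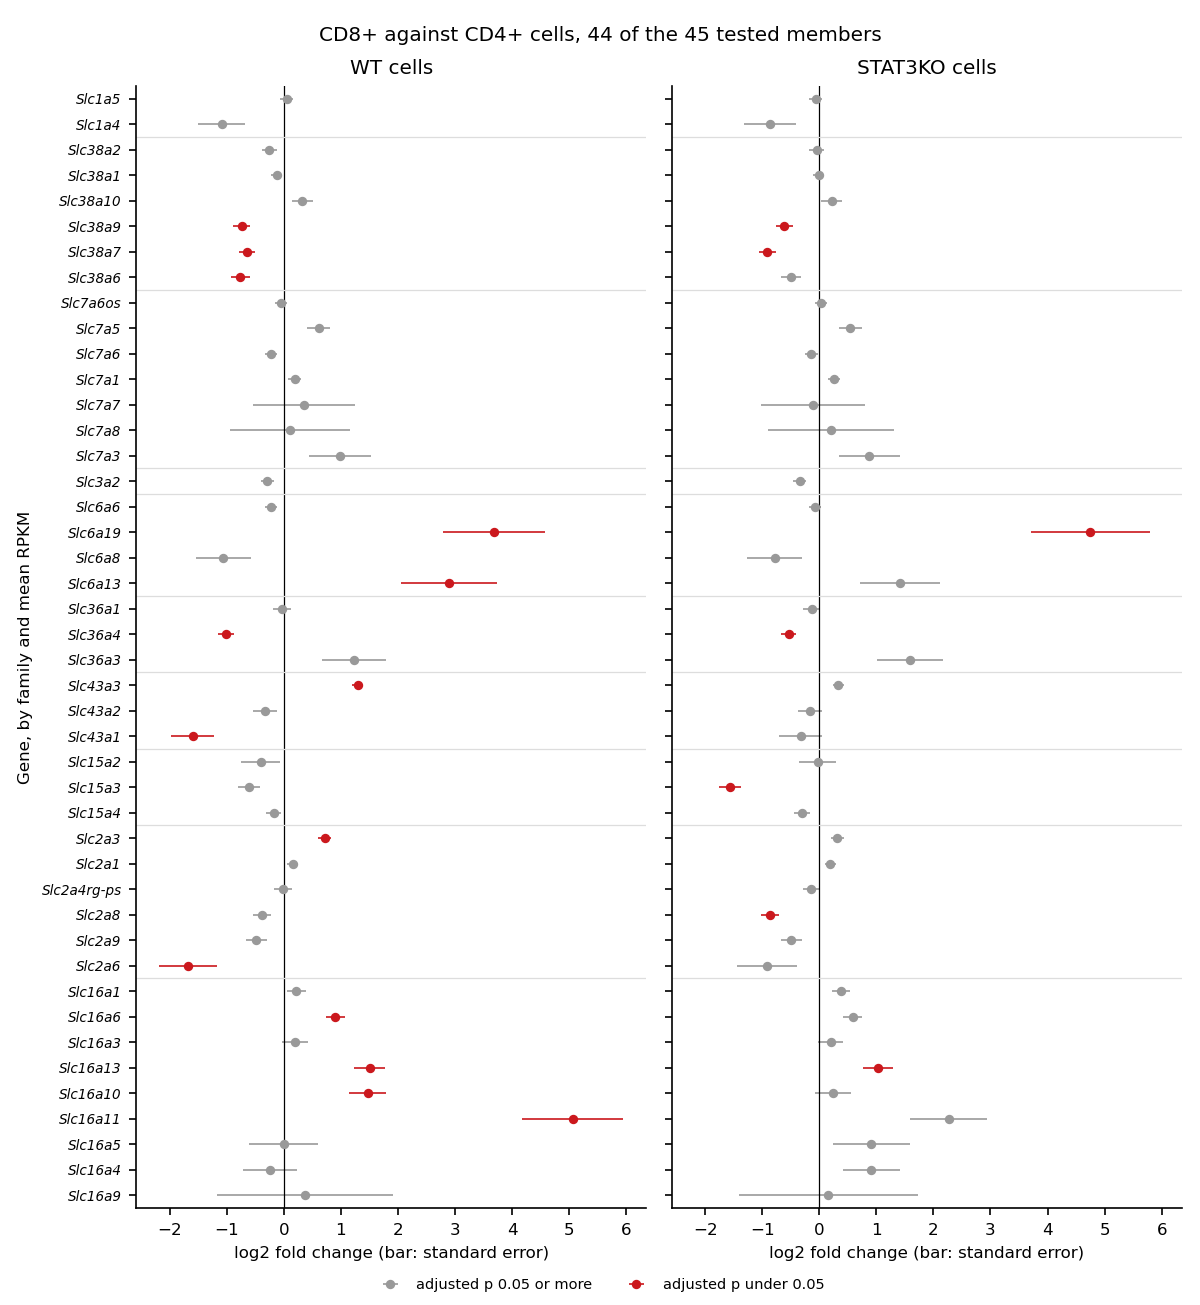
Log2 fold change of CD8+ against CD4+ T cells in WT (left) and STAT3KO (right) cells for 44 of the 45 tested members, ordered by family and mean RPKM; bars are standard errors and red marks an edgeR adjusted p under 0.05. The 4 red Slc16 members lie to the right in WT cells, Slc16a11 among them having passed the filter through CD8+ libraries, and Slc38a7, Slc38a9 and Slc36a4 lie to the left in both panels.

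Some members moved with the replicate number. Of the 45, 11 were higher in the second library of all 4 groups and 4 were higher in the first. The share over all genes was not counted. Over all genes, too, the differences between replicates correlated between groups (0.42 to 0.67), so such movement was not particular to the members. Among the 11 are members that also differed between groups, such as Slc15a2 and Slc36a4. Slc16a9 had 3 and 18 reads in the first and second WT and 3 and 18 in the first and second STAT3KO libraries of CD4+ cells, and 0 and 31 and then 2 and 22 in those of CD8+ cells. Slc7a8 (LAT2) had 20 and 36, 7 and 32, 7 and 62 and 7 and 39 reads in the same order, and Slc7a7 (y+LAT1) 13 and 21, 11 and 26, 5 and 45 and 10 and 25. Slc16a9 shares 23.5% of its exon bases with Gm7097 and Gm9877 on the opposite strand, so its reads may include theirs. The untested glutamate carrier Slc1a3 had 3 reads over the first and 37 over the second libraries. These are the libraries in which the macrophage and monocyte list was higher, and whether that RNA supplies these reads was not tested.

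The sequence before the start site is shown for Slc15a2, Slc7a1 and Slc36a4, because these carriers were called between genotypes. Windows of 250 bases from RefSeq (GRCm38.p6, the build of the files) were found for 31 of the 45 tested members and searched on both strands for a STAT element (TTCNNNGAA), the E-box bound by Myc (CACGTG) and the amino acid response element (TGATGNAA). The STAT element stood in 7.02% of all 32851 windows. Counted by gene, since a gene can have several windows, it stood in 8.13% of all genes and in 2 of the 31 members, Slc7a1 and Slc38a9. In Slc7a1 it begins 146 bases before the start site of the inner of its 2 windows, and it is in capitals in the sequence. The windows of Slc15a2, Slc36a4 and the outer start of Slc7a1 are in lower case throughout, having none of the 3 motifs.
Slc15a2 (chr16:36784963-36785212, minus strand): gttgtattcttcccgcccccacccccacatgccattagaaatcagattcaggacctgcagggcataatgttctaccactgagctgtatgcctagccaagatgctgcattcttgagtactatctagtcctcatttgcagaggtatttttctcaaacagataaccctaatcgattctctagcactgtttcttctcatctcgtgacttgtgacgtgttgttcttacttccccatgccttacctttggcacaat
Slc7a1, inner start (chr5:148392816-148393065, minus strand): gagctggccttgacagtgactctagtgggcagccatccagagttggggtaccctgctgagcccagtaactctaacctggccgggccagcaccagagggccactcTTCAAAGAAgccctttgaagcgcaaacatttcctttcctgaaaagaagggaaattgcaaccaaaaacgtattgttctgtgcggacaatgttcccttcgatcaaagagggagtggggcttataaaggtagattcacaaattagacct
Slc7a1, outer start (chr5:148399905-148400154, minus strand): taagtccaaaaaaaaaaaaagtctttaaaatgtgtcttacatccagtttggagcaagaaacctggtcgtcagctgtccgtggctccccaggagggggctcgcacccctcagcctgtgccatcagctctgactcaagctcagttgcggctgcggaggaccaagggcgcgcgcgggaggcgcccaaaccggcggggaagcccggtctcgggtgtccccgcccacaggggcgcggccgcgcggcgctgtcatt
Slc36a4 (chr9:15709488-15709737, plus strand): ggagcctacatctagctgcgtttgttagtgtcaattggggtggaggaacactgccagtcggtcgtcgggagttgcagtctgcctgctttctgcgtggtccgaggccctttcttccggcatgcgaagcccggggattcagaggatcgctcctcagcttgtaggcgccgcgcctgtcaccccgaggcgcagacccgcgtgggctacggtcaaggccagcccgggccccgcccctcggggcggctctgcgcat

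The E-box stood in 6.02% of all windows. By gene it stood in 6.86% of all genes and in 4 of the 31 members, Slc16a1 (200 bases before the start), Slc36a1 (31), Slc38a7 (34) and Slc43a1 (64), none of which was called between genotypes. The amino acid response element stood in 3.45% of windows, in 3.91% of genes and in 1 member, Slc7a7. A match is a description of letters, not of binding.

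Genes around the carriers were described from lists of the same pathways. Among 4 partners and chaperones, Itgb1, the integrin chain that binds CD98, rose in both lineages, from 1793 and 1693 to 3604 and 3564 CPM in CD4+ and from 1209 and 988 to 2411 and 2010.4 in CD8+ cells (log2 1.04 ± 0.12 and 1.01 ± 0.12, adjusted p = 0.00275 and 0.0144). The MCT1 chaperone Bsg did not pass (adjusted p = 0.821 and 0.416), and the related Emb had 469 and 970.4 against 237 and 329 CPM in CD4+ cells (adjusted p = 0.0571). Of 20 tested enzymes that use the nutrients, 4 were called lower in STAT3KO CD4+ cells and the others were not called: lactate dehydrogenase Ldha (log2 -0.55 ± 0.10, adjusted p = 0.0147), the branched-chain aminotransferase Bcat1 (log2 -1.20 ± 0.26), asparagine synthetase Asns (log2 -0.75 ± 0.17) and the serine enzyme Shmt1 (log2 -0.59 ± 0.14). In CD8+ cells the smallest adjusted p of these 20 was that of Ldha, 0.0523.

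Among 23 genes by which mTORC1 senses amino acids, Nprl2 rose (log2 0.54 ± 0.14) and the leucine sensor relative Sesn3 fell (log2 -0.84 ± 0.10) in CD4+ cells, and in CD8+ cells the smallest adjusted p was 0.139. Among 11 regulators of transporter genes, Hif1a, which drives glucose and lactate carrier genes under low oxygen, fell from 1822 and 1978 to 921 and 949 CPM in CD4+ cells (log2 -1.02 ± 0.12, adjusted p = 0.00269) and read 631 and 633 against 533 and 665 in CD8+ cells (adjusted p = 0.799). Myc, which drives amino acid carrier genes, read 167 and 65.3 against 96.0 and 42.4 CPM in CD4+ and 139 and 75.8 against 76.7 and 48.7 in CD8+ cells (adjusted p = 0.427 and 0.499), higher in the first library of every group. The 12 tested genes of the amino acid response were not called, the smallest adjusted p being 0.107 in CD4+ cells and 0.244 in CD8+ cells. Of 16 other nutrient carriers outside the 10 families, the folate carrier Slc19a1 alone was called, lower in both lineages, at 18.0 and 17.6 against 10.6 and 10.5 CPM in CD4+ and 18.8 and 19.5 against 12.2 and 11.9 in CD8+ cells (adjusted p = 0.00737 and 0.0338).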

How the data were processed

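Donor CD4+ and CD8+ T cells (H-2Kb+ TCRβ+) were sorted from spleen. The authors aligned reads to mm10 with STAR, and the deposited files hold raw counts per RefSeq gene from htseq-count and RPKM values. The strand setting of the counting is not given in the sources used here, and the growth and treatment labels describe another cell system and were not used. Counts were scaled by TMM and tested with edgeR 4.0.16 (R 4.3.3) by the quasi-likelihood test, 2-sided, in 1 fit of 8 libraries with a mean per group, on genes kept by filterByExpr (minimum count 10), with Benjamini-Hochberg adjustment over 12428 genes. CPM were taken on TMM-scaled totals, and each SE is that of the fitted log2 fold change. Totals of 20171396 to 23282757 reads make 3 reads about 0.129 to 0.149 CPM. RPKM, computed by the authors, served to compare genes and for limma 3.58.1 on log2(RPKM + 1) or + 0.1. DESeq2 1.42.0, RLE factors, column totals, no filter, only the 4 libraries compared, a replicate block and library removals were alternatives. Named were members called between genotypes, Slc3a2, Slc2a1 and Slc15a2, the highest member of each family, the 10 highest in RPKM, and the 3 strongest called members in each direction between lineages; other members, Slc7a5 and Slc16a3 among them, were chosen after their values were seen. The results of 1 member are not reported here. Members and lists were chosen with earlier results of these data known. The test was also run on simulated counts with known changes, drawn with means and spread estimated from these data. The outcome of that run is not given here.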

Additional observations from a re-analysis of the deposited data

How the results depend on the processing

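The 6 calls between genotypes in CD4+ cells became 16 with the replicate block and 1 to 7 with 1 library left out, and stayed within 1.5 times of 6 under the other settings. The 3 calls in CD8+ cells became 6 with DESeq2, 9 with the replicate block, 0 by edgeR on the 4 CD8+ libraries alone, 1 with limma on log2(RPKM + 1), and 0 to 1 with 1 library left out. Between lineages, the 15 calls in WT cells became 26 with the block, 8 with the 4 libraries alone and 8 to 16 with 1 left out, and the 7 in STAT3KO cells became 15, 4 with limma on log2(RPKM + 1), and 1 to 7. The interaction gave 1 with DESeq2, 2 with the block and 0 with 1 library left out. The groups share replicate numbers, and the labels do not say what a number stands for. In the sample titles, libraries numbered 1 and libraries numbered 2 carry identifiers from 2 separate ranges. The differences between replicates 1 and 2 correlated at 0.42 to 0.67 over all genes in every pair of groups, a hint from the data that libraries of the same number share a source, with 2 pairs a comparison. With the block, the calls in CD4+ cells also held Slc3a2, Slc38a1, Slc7a5, Slc7a6, Slc1a4, Slc2a6 and Slc43a1 as lower and Slc15a3, Slc16a10 and Slc2a8 as higher, and those in CD8+ cells Slc3a2, Slc7a5, Slc7a1, Slc6a6 and Slc16a6 as lower and Slc2a4rg-ps as higher. Between lineages the block also called Slc7a5 as higher and Slc3a2 as lower in CD8+ cells of both genotypes, and Slc2a3 and Slc43a3 as higher in STAT3KO CD8+ cells. The block raised the calls over all genes as well, to 3747 and 2258 between genotypes in CD4+ and CD8+ cells. Between lineages it gave 5232 in WT and 3689 in STAT3KO cells, and for the interaction 403. Leaving out a library of the groups compared lowered the calls over all genes between genotypes and between lineages.

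Signs turned in 19 of 719 recalculations, all of values near 0 that were not called: Slc2a1 in CD4+ cells (-0.0069 with column totals, -0.0017 without the filter, -0.0013 with limma at either pseudocount, and -0.031 to 0.083 with 1 library left out) and in CD8+ cells (-0.0051 to 0.12), Slc36a1 in CD4+ cells (0.00080 with the block, -0.17 to 0.20), Slc16a1 (-0.31 to 0.040 and -0.11 to 0.17), Slc2a3 in CD4+ cells (-0.013 to 0.25), Slc38a10 (-0.16 to 0.26 and -0.23 to 0.11) and Slc38a2 in CD8+ cells (-0.024 to 0.28). The cause was not tested. Of the others, 611 kept direction and side of the threshold, 74 lost and 15 gained it.

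With 2 pools a group and low counts for many members, differences of -0.25 and -0.30 on the log2 scale in Slc3a2 and of -0.52 and -0.59 in Slc7a5 did not pass the test without the block, and low members in the comparisons between genotypes had standard errors up to 1.59. RNA does not give the amount of carrier at the cell surface.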
